A study of Mus musculus with 12 samples.

Results

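The 17 and 18 nt sequences of the deposited piRNA table are the shortest RNAs that the libraries could hold. Every row of that table with a length of 17 or 18 nt was taken, except the 223 rows that end in CCA, the 3′ end of mature tRNAs. This gave 20861 of the 1018402 sequences in the table (2.05%), of which 10145 were 17 nt and 10716 were 18 nt long. Of these, 92 (47 of 17 nt and 45 of 18 nt) had a mean of at least 5 RPM (reads scaled to a common library size) over all libraries and were tested one by one, among 22726 sequences of all lengths that passed the same minimum.

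The study sequenced small RNAs of 17 to 40 nt from the testis of C57BL/6 males, 4 months old. Libraries were made from 10, 50 or 100 ng of total RNA, either untreated (before oxidation) or treated with sodium periodate (after oxidation). Each of the 6 groups held 2 technical replicates, so there were 12 libraries, and p-values measure technical spread only. Spike-in RNAs were added in proportion to the input in every group.

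A piRNA is a small RNA of germ cells that guides a PIWI protein, usually to silence transposons or to cleave long RNAs. Its 3′ end carries a 2′-O-methyl group placed by HENMT1, which protects it from periodate, whereas an RNA with a free 2′,3′-diol loses its ability to be ligated to an adapter after treatment. Mature mouse piRNAs start mostly with U, and the sequences described here are shorter than the piRNAs that PIWI proteins of the testis carry.

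The sequences below are those with the highest levels, the largest changes or the strongest dependence on input among the tested 92, with a pair that differs by 1 base at the 3′ end (s17k and s18a). They are named s17 or s18 by length, with a letter in order of mean RPM. Each line gives the short sequence in lower case, then, in capitals, the 3 bases that come next in a longer sequence, then its remaining bases. That longer sequence is the most abundant of the table that contains the short one and runs at least 3 bases beyond it. Longer sequences that end on the same base were not used and can be more abundant, as the 22 nt one of s17a is. The table writes T for U.
s17a: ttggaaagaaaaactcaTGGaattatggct
s18a: tagtggatttggcaatgtTGGaatggga
s17k: tagtggatttggcaatgTTGgaatggga
s18b: tgttagaaggaatgaaatTGGaaaga
s18c: tgggtttggcaattattcTGGaatcttggg
s17b: tcactgtgttaattcccTGGaagg
s17c: ttagaaatctgtcattaTGGaagtaactgt
s18d: taaagactctggcctgcaTGGgaatc
s18e: tgcctgctgttagctttgTGGa
s17d: tatactgtaagatggagTGGaaaggagg
s17e: tctgcaggcagaacactTGGattcctctct
s17f: tgcaactttgtgaagccTGG
s17j: tgtctctctgaagggttTGGaatc
s18g: tgaactggaccaggaggaAGA
s17g: tactgagaaatccttgcTGG
s18j: tatcactggaacctgagaGGTtggaaaagc
s18k: tggtggtcctagattcttTAAgaaagca
s17i: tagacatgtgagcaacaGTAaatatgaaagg
s18l: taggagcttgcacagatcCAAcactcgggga
All but one of the printed sequences that did not fall ended just before the bases TGG, whereas 5 of the 6 that fell (s18g, s18j, s18k, s17i and s18l, but not s17g) ended before other bases. The exception, s17k, is the form of s18a that lacks its last base, and it was almost absent. This feature was noticed after the values were seen, so what follows about it is a description with no test.

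The libraries held 1924201 to 3347735 reads in the denominator of the RPM values, recovered from the value of 1 read, and 3 reads were worth 0.896 to 1.56 RPM in a single library. Before oxidation the germ cell miRNA miR-741-3p was at 20428 to 33938 RPM. Also of germ cells, miR-34c-5p was at 1081 to 2256 RPM and miR-449a-5p at only 6.17 to 39.6 RPM. In the same libraries miR-202-5p of Sertoli cells was at 62.1 to 191 RPM and miR-143-3p of smooth muscle at 8933 to 13611 RPM. The blood cell miRNAs miR-451a and miR-144-3p were at 0 to 1.55 and 0 to 2.36 RPM. After oxidation, miRNAs, which end in a free diol, summed to 218 to 441 RPM, against 116696 to 138463 RPM before. Both 10 ng libraries after oxidation stood apart from the others in the number of distinct short sequences, given below, and the results that rest on them are given by input.

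The 17 and 18 nt sequences rose in RPM after oxidation, with higher sums at every input. RPM are shares of the reads of a bulk tissue library, so a higher value need not mean a larger amount. The number of cells of a type and the RNA per cell cannot be told apart in such data. They summed to 3864 ± 132 RPM before oxidation (SD, n = 6 libraries), with 3810 and 3744 RPM at 10 ng, 4063 and 3731 RPM at 50 ng and 3978 and 3855 RPM at 100 ng. After oxidation the sums were 10651 and 12971 RPM at 10 ng, 6616 and 7197 RPM at 50 ng, and 5922 and 6819 RPM at 100 ng. Every library after oxidation lay above every library before it, and both 10 ng libraries lay above the other 4 after oxidation. The mean log2 change was 1.05, or 2.08-fold, with the rise seen in 6 of 6 same-input pairs of libraries. Pairs here and below match replicate numbers, which did not link the libraries, so counts of pairs only describe direction. By input, the rise was 3.11-fold (10 ng), 1.77-fold (50 ng) and 1.62-fold (100 ng).

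An exact 2-sided permutation test within inputs gave p = 0.00926 for this rise, the smallest value the 216 arrangements allow, and 0.0108 after Benjamini-Hochberg adjustment over 7 tests of sums. Per read of the methylated spike-ins the direction turned, and the sum fell by 1.94 on the log2 scale. That scaling lowered the table as a whole: the median log2 change of the 22726 tested moved from -0.14 to -2.59. Without the 10 ng libraries the log2 change was 0.76, in a design whose smallest possible p is 0.0556.

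Among the neighbouring lengths, 19 nt stood apart, while 20 to 22 nt were higher after oxidation as well. The 19 nt sequences, a length at which by-products of piRNA processing accumulate in testis, went from 8211 ± 206 RPM to 4881 ± 1248 RPM (SD, n = 6), so that the 17 and 18 nt sum gained 1.84 log2 units on them (exact permutation p = 0.00926, adjusted 0.0108, higher in 6 of 6 pairs). The 20 nt sequences went from 3144 ± 89.3 to 5670 ± 1595 RPM, those of 21 nt from 3754 ± 208 to 5638 ± 1261 RPM and those of 22 nt from 5857 ± 141 to 9797 ± 1363 RPM. Their mean changes of 1.75-fold, 1.47-fold and 1.66-fold lay below those of 17 and 18 nt, a difference that was not tested. The 29 to 32 nt sequences, which hold most of the full-length piRNAs, went from 516595 ± 3648 RPM to 599347 ± 27510 RPM, and the short sequences gained 0.84 log2 units on them (exact permutation p = 0.00926, adjusted 0.0108). The 17 nt sequences rose 2.14-fold and the 18 nt sequences 2.01-fold. That small difference of 0.09 log2 units had the same sign in 6 of 6 pairs (exact permutation p = 0.00926, adjusted 0.0108), but its sign turned, to -0.07, once the sequences that end before TGG were set aside, and without the 10 most abundant sequences its exact permutation p was 0.0556.

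Grouped by the bases that follow, the short sequences differed in level and in change. Of the 20861, 2362 (11.3%) ended just before TGG in the longer table sequence that contains them, 16187 ended before other bases, and 2312 had no longer sequence from which the next bases could be read. The 2362 sequences made up 34.9% ± 2.14 of the summed short RPM before oxidation and 68.4% ± 15.8 after it (SD, n = 6). In full-length sequences of 26 to 32 nt, TGG stood after base 17 in 1.89% of RPM and after base 18 in 2.18%. These 2 shares count from the first base of the full-length sequence. For the short sequences the next bases were read wherever they lay in a longer one, so the measures are not alike. The motif was sought on the strand of the sequence itself and at the stated position alone.

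The sequences that end before TGG summed to 1278 and 1178 RPM at 10 ng, 1441 and 1337 RPM at 50 ng, and 1499 and 1366 RPM at 100 ng before oxidation. After it they summed to 5736 and 5602 RPM, 5279 and 5451 RPM, and 4574 and 5492 RPM at the same inputs. The groups were far apart at every input, and the 6 libraries after oxidation lay between 4574 and 5736 RPM. The mean difference was 3.97-fold, and 4.62-fold, 3.86-fold and 3.50-fold at 10, 50 and 100 ng. Per read of the methylated spike-ins the log2 value turned to -1.0, with the shift of the median of all sequences given above.

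**Figure D1:**
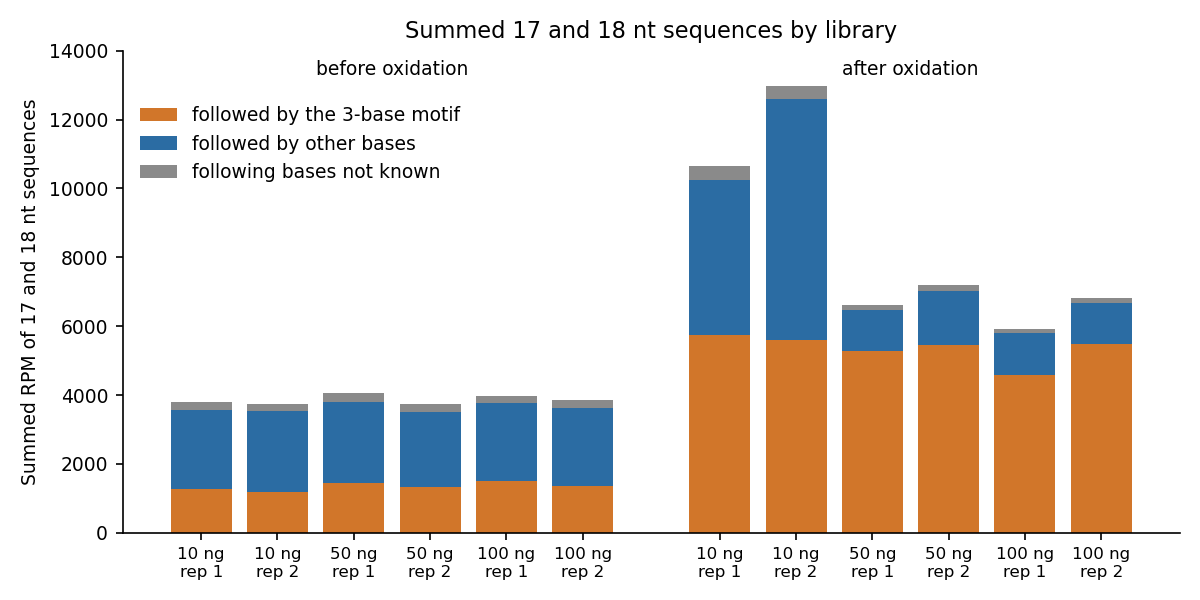
Summed RPM of the 17 and 18 nt sequences (vertical axis) in each of the 12 libraries (horizontal axis, by input and technical replicate). Bars are split by the bases that follow each sequence with the highest summed RPM in longer table sequences. The 3-base motif is TGG. The portion that precedes the motif goes from between 1178 and 1499 RPM before oxidation to between 4574 and 5736 RPM after it at every input, whereas the portion before other bases is large after oxidation only in the 10 ng libraries.

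The remaining short sequences followed another course. They summed to between 2395 and 2622 RPM before oxidation in all 6 libraries. After oxidation they were at 4915 and 7369 RPM at 10 ng, 1337 and 1746 RPM at 50 ng, and 1348 and 1327 RPM at 100 ng. They thus stood 2.36-fold higher at 10 ng, and at 0.610 and 0.539 of the untreated level at 50 and 100 ng. The 2.08-fold rise of the whole set was thus made up of higher levels before TGG at every input and of higher levels of the others at 10 ng alone. Without the sequences before TGG the mean log2 change was -0.12.

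The change was largest for sequences whose following bases matched 3 or more bases of TGGAA. The 802 sequences before TGGAA went from 908 to 3748 RPM, or 4.14-fold. The 584 before TGGA and another base stood 3.89-fold higher and the 940 before TGG and another base 3.45-fold higher. The 1441 sequences before TG and a base other than G stood at 1.14-fold, and the 3805 before T and a base other than G at 0.756-fold. For the 10519 sequences whose next base was not T the value was 0.948-fold. The step in these values lay between a match of 2 bases and a match of 3, and below 3 bases the values had no order by match. At 10 ng the log2 changes were 1.46 where the next base was not T, 0.93 before T and 0.96 before TG, against 2.01 to 2.26 for the 3 classes before TGG. At 100 ng the same values were -0.97, -1.24 and -0.02, against 1.61 to 1.88.

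As background, the 3′ adapter of a widely used small RNA kit begins with the same bases. No source used here gives the adapter and primer of these libraries or the way adapters were trimmed. The part of adapter sequence, priming or trimming in the difference before TGG was not tested.

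The same split appeared at every length from 17 to 25 nt. Sequences before TGG had a mean log2 change of 2.07 at 17 nt, 1.90 at 18 nt, 1.92 at 19 nt, 2.14 at 20 nt and 1.98 at 22 nt, and of 1.05 at 25 nt. The other sequences of those lengths had mean values of -0.16 at 17 nt, -0.09 at 18 nt, -0.35 at 20 nt and -0.03 at 25 nt. At 17, 18 and 20 nt these means join a rise at 10 ng with falls at 50 and 100 ng. In that order of input, the log2 changes were 1.20, -0.79 and -0.89 at 17 nt. They were 1.28, -0.64 and -0.90 at 18 nt, and 0.49, -0.67 and -0.87 at 20 nt. At 19 nt the other sequences stood far below those of adjacent lengths, with a log2 change of -2.32. With the sequences before TGG left out of both sets, the contrast between 17 and 18 nt and 19 nt given above was 2.19 log2 units.

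**Figure D2:**
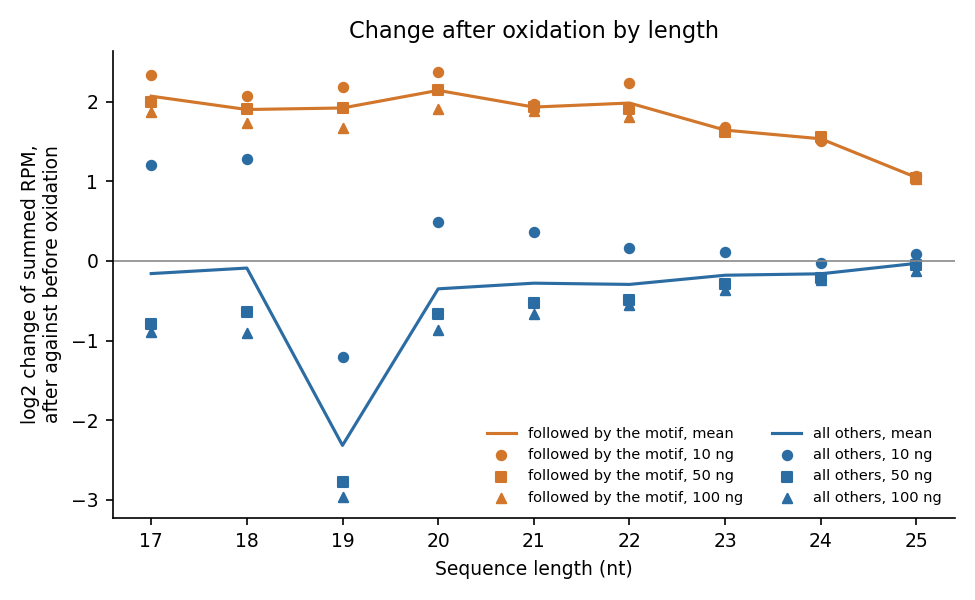
Log2 change of summed RPM after against before oxidation (vertical axis) by sequence length from 17 to 25 nt (horizontal axis), for sequences followed by the motif TGG and for all others; lines are means over the 3 inputs and symbols are the inputs, each from 2 libraries before and 2 after oxidation. The upper line lies at 1.05 or more at every length, the lower line at or below 0, with its lowest point of -2.32 at 19 nt. At 17, 18 and 20 nt the lower line joins a rise at 10 ng with falls at 50 and 100 ng.

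The position of the 3′ end was sharp. The 1190 sequences of 18 nt before TGG went from 671 ± 51.0 to 2507 ± 182 RPM in sum (SD, n = 6 libraries each). The 74 sequences of 17 nt that share their first 17 bases summed to only 15.0 ± 2.61 RPM before and 5.43 ± 3.38 RPM after. Likewise, the 1172 sequences of 17 nt before TGG went from 679 ± 66.4 to 2848 ± 252 RPM, and the 101 sequences of 18 nt that extend them by 1 base went from 16.9 ± 4.79 to 25.3 ± 28.9 RPM. In the whole set of 10145 sequences of 17 nt and 10716 of 18 nt, 1539 such pairs shared a start. Whether such neighbours are as scarce outside the set before TGG was not tested. For the sequences before TGG, a single base at the 3′ end separated abundant sequences, higher after oxidation, from scarce ones.

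The pair s18a and s17k shows this for 1 start site. The 18 nt form s18a was at 77.2 and 73.3 RPM at 10 ng, 56.2 and 52.3 RPM at 50 ng, and 47.2 and 46.6 RPM at 100 ng before oxidation. After oxidation it was at 335 and 403 RPM, 315 and 368 RPM, and 222 and 276 RPM. All 6 values after oxidation lay above all 6 before it, with a log2 change of 2.43 ± 0.11 (SE, limma-trend adjusted p = 2.92e-06). The form s17k, 1 base shorter, was at 0.286 ± 0.416 RPM before and 0.370 ± 0.419 RPM after (SD, n = 6), below the worth of 3 reads in both means. Longer sequences of 26 to 32 nt that start with s18a, the candidate full-length piRNAs, were at 27.5 RPM before and 22.0 RPM after oxidation. The sequence of s18a matches an exon of the long noncoding gene Gm21269 at chr7:73818680-73818697 (plus strand, GRCm38, GENCODE).

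The most abundant member, s17a, was also higher after oxidation at every input. Before oxidation it was at 135 and 109 RPM at 10 ng, 192 and 172 RPM at 50 ng, and 209 and 189 RPM at 100 ng. After oxidation it was at 697 and 748 RPM, 701 and 733 RPM, and 651 and 827 RPM. The highest value before oxidation, 209 RPM, lay far below the lowest after it, 651 RPM, and the log2 change was 2.14 ± 0.10 (SE, limma-trend adjusted p = 2.62e-06).

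The 3 sequences below show what surrounds s17a, with its 17 bases in capitals.
30 nt, same start: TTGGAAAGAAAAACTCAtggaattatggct
29 nt, same start: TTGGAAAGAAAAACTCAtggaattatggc
22 nt, same end: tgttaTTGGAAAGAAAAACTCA
The 30 nt sequence, which has the length of a pachytene piRNA, stood at 255.8 ± 57.8 RPM in untreated libraries and at 124.6 ± 29.2 RPM in oxidized ones (SD, n = 6). The 29 nt sequence stood at 103 ± 39.4 and 72.3 ± 13.7 RPM. The 22 nt sequence, which starts 5 bases upstream and ends on the same base as s17a, went from 346 ± 93.6 to 1510 ± 166 RPM. Sequences sharing the 3′ end before TGG thus stood higher after oxidation together, while the 29 and 30 nt sequences, which share the 5′ end and run through TGG, stood lower.

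**Figure D3:**
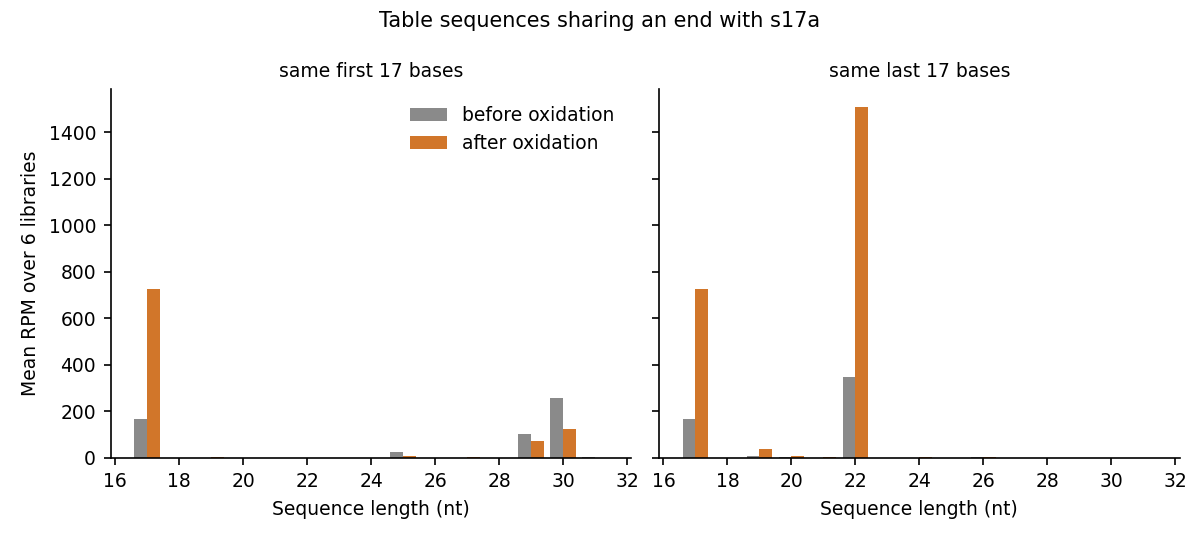
Mean RPM over 6 libraries (vertical axis) of table sequences that share the first 17 bases (left) or the last 17 bases (right) with s17a, by length (horizontal axis), before and after oxidation. On the left the 29 and 30 nt sequences are lower after oxidation than before; on the right the 17 and 22 nt sequences, which end before TGG, are higher after it.

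Among the 92 sequences tested one by one, limma-trend on log2(RPM + 1) with Benjamini-Hochberg adjustment over all 22726 sequences called 64 higher and 7 lower after oxidation, averaged over inputs. Over all tested sequences of every length, 21.2% were called higher and 22.8% lower. The median log2 change was 1.81 for the 92 and -0.14 for all. These counts do not stand for the 20861: 50 of the 92 reached 5 RPM only after oxidation and 5 only before it, so the minimum itself favoured sequences that are high after oxidation. The members just inside the minimum had means of 5.02 to 5.11 RPM and those just outside 4.95 to 4.99 RPM. Scaled to the methylated spike-ins, 2 of the 92 were called higher and 42 lower, against 175 higher and 19839 lower of all 22726 tested.

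Of the 92, 80 ended before TGG. Of these 80, 59 were called higher and 1 lower, and of the other 12, 5 were called higher and 6 lower. At 10 ng, 51 of the 92 were called higher and 8 lower, against 21.4% and 31.5% of all tested sequences. At 50 ng, 31 were called higher and 3 lower (all sequences, 5.77% and 3.44%), and at 100 ng 19 and 3 (all sequences, 1.91% and 2.16%). The called-higher shares of the 92 were 55.4%, 33.7% and 20.7% at the 3 inputs, under the same limit of the minimum. Without replicate 1 or 2 of 10 ng after oxidation, 74 sequences were called at 50 ng, and 56 or 57 at 100 ng. Without either 50 ng library before oxidation, or without replicate 2 of 50 ng after it, 11 were called at 50 ng, without replicate 1 of 50 ng after oxidation or either 100 ng library before it 22 were, and without any single 100 ng library 6 to 9 were called at 100 ng.

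**Figure D4:**
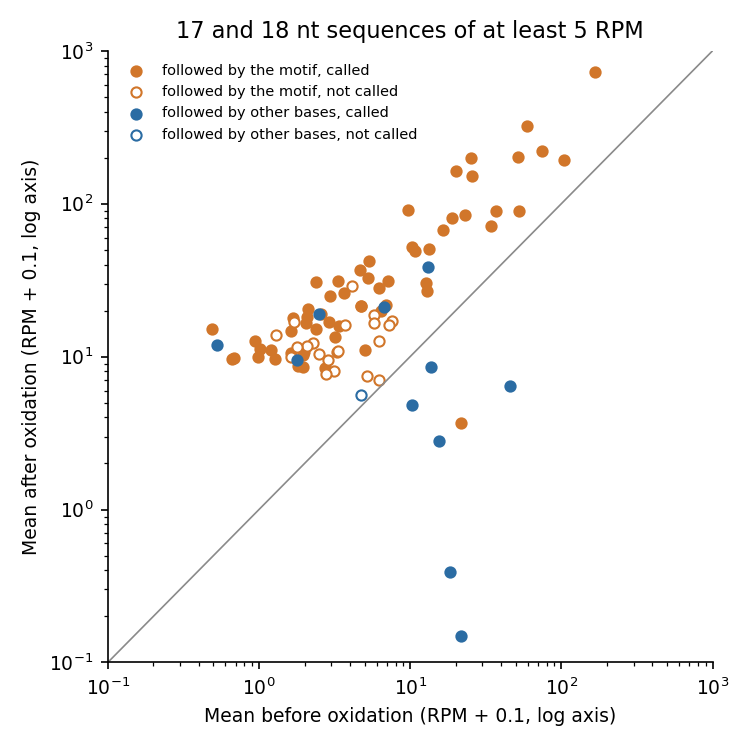
Mean RPM before (horizontal axis) and after oxidation (vertical axis), both with 0.1 added on log axes, of the 92 tested 17 and 18 nt sequences; filled symbols were called by limma-trend, the line marks equal values. Nearly all sequences followed by TGG lie above the line, 1 of the 80 was called lower, and 6 of the 12 others were called lower.

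Sequences of the highest level rose by differing amounts. After s17a and s18a, the highest were s18c, from 74.2 ± 18 to 221 ± 30.7 RPM, s17b, from 51.7 ± 8.03 to 202 ± 32.5 RPM, and s17c, from 25.3 ± 6.5 to 199 ± 44.0 RPM (SD, n = 6). The smallest value after oxidation exceeded the largest before it in each of these 3. The sequence s18b rose less, from 104 ± 13.6 to 194 ± 59.4 RPM, as did s17d, described further on. For s18b the log2 change of 0.83 ± 0.18 (SE) had a limma-trend adjusted p of 0.00429, it was higher in 5 of 6 pairs, and the edgeR and DESeq2 alternatives did not call it (adjusted p = 0.199 and 0.485).

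The largest rises came from differing levels. The sequence s18d went from 20.03 ± 6.64 to 164 ± 29.2 RPM, s17e from 9.56 ± 4.99 to 90.7 ± 51.0 RPM and s17f from 2.27 ± 1.5 to 30.8 ± 21.2 RPM. For s17f the limma-trend log2 change was 3.23 ± 0.34 (SE, adjusted p = 0.000121), the largest of the 92 on the log2(RPM + 1) scale. It was at 42.1 and 69.1 RPM at 10 ng, 23.03 and 17.8 RPM at 50 ng, and 14.0 and 18.9 RPM at 100 ng after oxidation. For s17e, the 26 to 32 nt sequences with the same start were at 213 RPM before and 226 RPM after, while s17e itself was 9.49-fold higher. Other rising sequences differed in this. The 26 to 32 nt sequences with the start of s17c went from 5.48 to 32.3 RPM, those of s18h, an 18 nt sequence that itself went from 5.22 to 41.9 RPM, from 1.78 to 9.27 RPM, and those of s17b from 1.09 to 3.73 RPM, higher together with the short form, whereas those of s17a and s18b were lower, from 363 to 200.4 RPM and from 35.03 to 13.8 RPM.

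Only 6 sequences were called lower and were lower in all 6 pairs. The one with the highest level, s18g, was at 50.0 and 49.7 RPM at 10 ng, 44.6 and 39.7 RPM at 50 ng, and 44.9 and 43.6 RPM at 100 ng before oxidation. After oxidation it was at 2.31 and 0 RPM, 15.7 and 3.56 RPM, and 5.68 and 10.4 RPM. All values after oxidation lay well below all before it (limma-trend log2 change -3.16 ± 0.40, SE, adjusted p = 0.000311). It matches an exon of the long noncoding gene Gm49794 at chr17:27356011-27356028 (plus strand, GRCm38, GENCODE).

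The surroundings of s18g differed from those of s17a. Sequences with the same start formed a series of many lengths: 34.0 RPM at 19 nt, 18.7 RPM at 20 nt, 90.7 RPM at 21 nt, 9.76 RPM at 22 nt, 9.61 RPM at 23 nt and 11.997 RPM at 26 nt before oxidation. After oxidation these were at 1.40, 1.79, 29.9, 2.41, 3.22 and 7.82 RPM. Each of these 6 lengths had a lower mean after oxidation, as s18g had. Among the scarcer lengths, those of 24 nt stood level, at 1.48 and 1.52 RPM, and those of 29 nt were higher, at 0.90 RPM before and 4.07 RPM after.

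Of the other falling sequences, s18k and s17i nearly vanished and s18l fell to a low level. The sequence s18k went from 21.4 ± 7.46 RPM to a single read in the 6 libraries together, and s17i from 18.3 ± 4.82 RPM to 5 reads, all in 1 library of 50 ng. The sequence s18l went from 15.5 ± 5.55 to 2.69 ± 3.38 RPM (SD, n = 6). The fall of s18j, from 13.5 ± 9.95 to 8.39 ± 9.24 RPM, was the smallest, with overlapping groups. Its limma-trend log2 change of -1.24 ± 0.32 (SE, adjusted p = 0.0110) was -0.63 with an adjusted p of 0.145 without the 10 ng libraries, and it was -0.40 with an adjusted p of 0.0628 with a pseudocount of 10.

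One falling sequence, s17g, did end before TGG. It was at 10.2 to 34.7 RPM before oxidation, with a median of 20.5 RPM, and at 0 to 6.68 RPM after it, with a median of 4.22 RPM. Both 10 ng libraries after oxidation held none of it. Longer sequences that end on its last base were at 447 RPM before and 550 RPM after oxidation in sum.

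Some tested sequences are near copies of each other and are not independent. Among the 92, 1 pair differs by 1 base at the 3′ end, 3 pairs by 1 base at the 5′ end, and 1 pair of 17 nt sequences by a single substitution. That pair, tgagatgttggaaaagc and tgagatgttggaaaatc (G16T, counted from the 5′ end), was at 12.6 and 12.8 RPM before oxidation and 30.4 and 26.7 RPM after it. Each row is a distinct sequence with values of whole reads, so the members of a pair are told apart by their bases. Reads of 1 member that arose from the other by a changed, lost or added base would not be recognised.

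Few single sequences were called between inputs before oxidation. Between 10 and 100 ng, 1 of the 92 was called higher at 10 ng and none lower by limma-trend, against 1.06% and 0.744% of all tested sequences; at an unadjusted p under 0.05 the counts were 3 and 10, and DESeq2 called 2 higher and 3 lower. The called one was s17d, which was at 86.8 and 79.5 RPM at 10 ng, 43.8 and 36.7 RPM at 50 ng, and 35.4 and 30.8 RPM at 100 ng. After oxidation it was at 54.6 and 77.4 RPM, 111 and 105 RPM, and 95.3 and 94.7 RPM. Its log2 change after oxidation was thus -0.35 at 10 ng and 1.40 and 1.5 at 50 and 100 ng, and the interaction of oxidation with input was called (limma-trend F test, adjusted p = 0.00775). Averaged over inputs its change was 0.85 (limma-trend adjusted p = 0.00127), which edgeR and DESeq2 did not call (adjusted p = 0.101 and 0.286). Leaving out 1 library at a time, the calls between 10 and 100 ng before oxidation ranged from 0, without any library before oxidation of these or the 50 ng input or without either of 100 ng after it, to 10, without either of 10 ng after it.

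After oxidation more sequences depended on input. Between 10 and 100 ng, 7 of the 92 were called higher at 10 ng and 9 lower, against 12.5% and 28.8% of all tested sequences. The interaction was called for 2 of the 92, against 23.1% of all. The second was s17j, which was at 33.3 and 39.5 RPM at 10 ng, 7.33 and 6.23 RPM at 50 ng, and 3.29 and 1.26 RPM at 100 ng after oxidation, from 0 to 1.43 RPM before it (limma-trend, adjusted p = 0.0488). Without replicate 1 or 2 of 10 ng after oxidation, 43 or 28 sequences differed by input and 25 or 13 had an interaction called. Without replicate 1 or 2 of 100 ng after oxidation, 5 or 8 differed by input.

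The number of distinct short sequences was lower after oxidation at every input, and lowest at 10 ng. Before oxidation, 2633 and 2547 distinct sequences were found in the 10 ng libraries, 3843 and 4302 in those of 50 ng, and 4365 and 4431 in those of 100 ng. After oxidation these numbers were 880 and 808, 1583 and 1611, and 2042 and 1859. Thinned to 1600000 reads in each library the ranges were 2306 to 3427 before and 805 to 1706 after, which do not overlap. At 10 ng after oxidation each distinct sequence was read 26.2 and 30.9 times on average, against 2.70 to 4.05 times before oxidation and 9.71 to 11.98 times at 50 and 100 ng after it. The part of these few, deeply read sequences in the high 10 ng sums was not tested.

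Over the whole set, 16496 sequences (79.1%) were seen in 1 library only and held 29.6% of the mean RPM. Only 51 were seen in all 12 libraries, and these held 36.2% of it. The 10 most abundant members took 16.9% ± 0.817 of the short RPM before oxidation and 30.9% ± 7.95 after it (SD, n = 6).

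The 5′ base, which is U in most mouse piRNAs, moved in opposite directions with input. U at base 1 made up 81.9% ± 0.588 of short RPM before oxidation (SD, n = 6). After oxidation it was only 71.8% and 65.5% in the 10 ng libraries, but stood at 86.7% and 85.2% in those of 50 ng and at 87.2% and 88.9% in those of 100 ng. The average over inputs therefore did not pass the test (-1.02 percentage points, exact permutation p = 0.713, adjusted 0.772 over 13 composition tests), while 50 and 100 ng lay above and 10 ng below every library before oxidation.

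Split by the following bases, the 2 sets of sequences differed in their 5′ base. Before TGG, U at base 1 was 91.3% to 94.1% before oxidation and 92.2% to 93.5% after it. In the other sequences it was 75.2% to 77.0% before oxidation, while after it the 10 ng libraries had 48.0% and 45.1%, the 50 ng libraries 61.4% and 60.7%, and the 100 ng libraries 68.8% and 69.7%. The sequences that precede TGG thus kept the 5′ base of piRNAs at every input, and the rest had less of it after oxidation at every input, least at 10 ng. The U-rich sequences before TGG made up 31.5% to 37.7% of short RPM before oxidation, 53.9% and 43.2% at 10 ng after it, and 75.7% to 80.5% at 50 and 100 ng after it. The higher share of U over the whole set at 50 and 100 ng thus came with a larger share of sequences before TGG, in which U lay between 91.3% and 94.1% in every library.

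**Figure D5:**
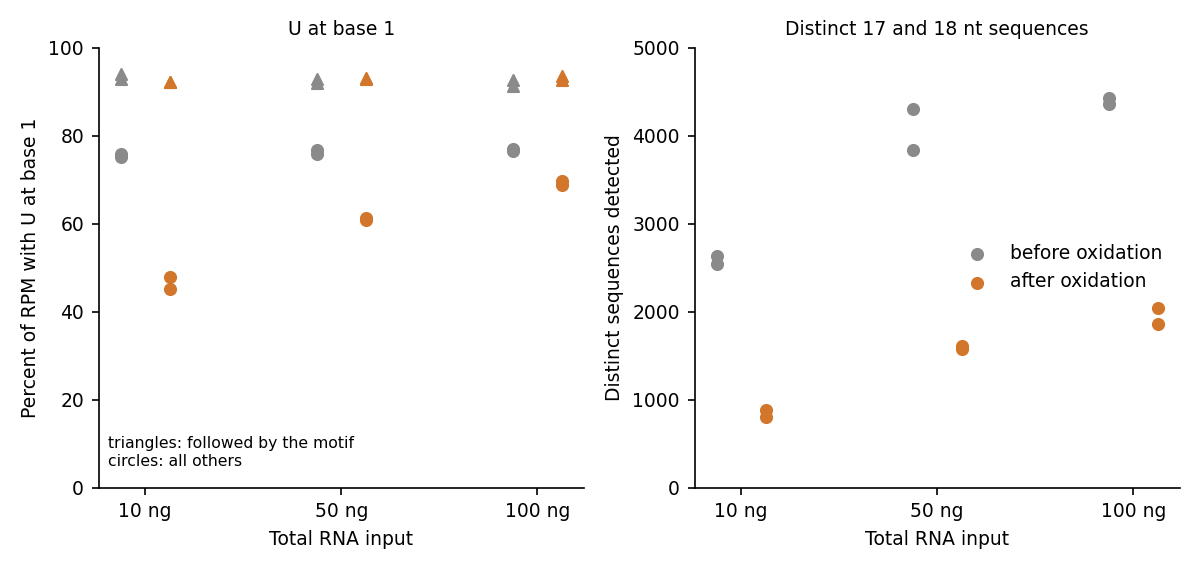
Left, percent of RPM with U at base 1 (vertical axis) for sequences followed by TGG (triangles) and all others (circles); right, number of distinct 17 and 18 nt sequences detected (vertical axis), both by input (horizontal axis), with 1 point for each library. Triangles stay between 91.3% and 94.1%, circles fall to 48.0% and 45.1% at 10 ng after oxidation, and distinct sequences fall to 880 and 808 there.

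Base 10, at which A marks piRNAs made by the ping-pong cycle of reciprocal cleavage, also changed. U at base 10 rose from 21.8% ± 0.933 to 32.045% ± 0.760 of RPM, by 10.9, 9.87 and 10.1 percentage points at 10, 50 and 100 ng (SD, n = 6; exact permutation p = 0.00926, adjusted 0.0241). G at base 10 fell by 5.54 points and C by 3.29 points, both with the same p. By input these changes were -7.37, -5.37 and -3.87 points for G and -0.90, -4.85 and -4.14 points for C at 10, 50 and 100 ng. Shares by RPM give most weight to abundant sequences. Of the 8 highest after oxidation, s18a, s17b, s17c, s18d and s18e had U at base 10. The others had A (s17a), G (s18b) and C (s18c) there. Mean RPM went from 58.8 to 320 for s18a, 51.7 to 202 for s17b and 25.3 to 199 for s17c. It went from 20.03 to 164 for s18d and 25.7 to 152 for s18e. The part of these single sequences in the rise of U at base 10 was not tested. A at base 10 was 32.01% ± 1.10 before and 30.6% ± 1.41 after, which did not pass after adjustment (exact permutation p = 0.0370, adjusted 0.0688), with -2.61, 0.35 and -2.09 points at the 3 inputs. At the last base, G fell by 2.13 points (exact permutation p = 0.00926, adjusted 0.0241) and U rose by 3.46 points (exact permutation p = 0.0185, adjusted 0.0401). This rise of U was 7.43 points at 10 ng, 2.45 at 50 ng and 0.51 at 100 ng, where the libraries overlapped (23.1% and 21.8% before, 23.2% and 22.7% after). The GC content fell from 44.1% ± 1.14 to 40.0% ± 1.16 of bases (exact permutation p = 0.00926, adjusted 0.0241).

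By position in full-length sequences, most short RPM lay in sequences that shared an end with a longer one. Of the 20861 sequences, 5880 were the first bases of a 26 to 32 nt table sequence and not the last bases of another, 3443 the last bases only, 7265 both, 2013 lay inside and 2260 matched none. Those in both classes, the largest group, went from 1758 ± 128 to 4379 ± 1146 RPM (SD, n = 6). Those at the start only went from 1358 ± 45.8 to 2341 ± 208 RPM (SD, n = 6). Those at the end only were at 254 to 296 RPM before oxidation in all libraries, and after it at 2125 and 3467 RPM at 10 ng, 451 and 636 RPM at 50 ng, and 400 and 406 RPM at 100 ng. The difference between the 2 classes was 0.80 log2 units on average and did not pass the test (exact permutation p = 0.157), with 2.35 at 10 ng, 0.11 at 50 ng and -0.07 at 100 ng. It passed without the 10 most abundant sequences, at 1.20 (exact permutation p = 0.00926).

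Sought in GENCODE transcripts of mouse (GRCm38) on both strands, 14768 sequences (70.8%) had no exact match, and these held 74.5% of short RPM before oxidation and 82.3% after it. The 2175 that matched long noncoding or retained-intron transcripts went from 399 to 845 RPM, and the 921 that matched the opposite strand of a transcript only from 124 to 267 RPM. The 2560 in protein-coding transcripts were at 345 RPM before and 334 RPM after. A further 246 lay within miRNA hairpins of RefSeq or in GENCODE transcripts of miRNA type. They were at 73.2 to 94.4 RPM in the libraries before oxidation and at 0 to 45.0 RPM after it, without overlap. Sequences of this length can match by chance, and the genome was not used here, so loci other than transcripts are not known.

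The transcripts also gave the bases after a sequence without use of the table. Of 5163 sequences with a match in the sense direction and 3 more bases beyond it, 700 (13.6%) stood before TGG in the transcript. These went from 165 to 762 RPM, whereas the other 4463 were at 693 RPM before and 453 RPM after oxidation. The 2 ways of reading the next bases named the same sequences in 503 of the 551 that stood before TGG in the table. Of the 700 that stood before TGG in the transcript, only these 503 did so in the table.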

How the data were processed

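The piRNA and miRNA tables hold RPM that the authors computed and deposited, and the spike-in table holds deposited raw read counts, with 1 blank line left out. The submitters' processing notes name Bowtie, with no version, and the builds mm10 and hg38. The labels give the method as 10ng-seq, and the adapter and trimming are not given in the sources used here. Within 0.01 of a read, 100% of piRNA values were whole reads, so the depth was recovered, and limits cover counting error only. Sums and shares were compared by exact permutation within inputs, with Python 3.11.15. Single sequences with a mean of 5 RPM or more were fitted as log2(RPM + 1) on 6 group means with limma 3.58.1 (trend), in R 4.3.3, at an adjusted p of 0.05. The fit was tested on simulated data. Alternatives included edgeR 4.0.16 and DESeq2 1.42.0 on the recovered reads. Named sequences were the 8 highest before and after oxidation, the 8 largest falls and rises called and alike in 6 pairs (6 falls met this), the 3 smallest interaction p and the most abundant pair 1 base apart, of which up to 20 are printed. The set and the lists were chosen with earlier results of these data known. For the groups, the next bases were those with the highest summed mean RPM over all longer table sequences holding the short one. The printed lines use the single most abundant longer sequence that runs at least 3 bases beyond the short one. Transcripts were GENCODE and hairpins RefSeq, and either could place a sequence in the miRNA class.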

Additional observations from a re-analysis of the deposited data

Results flagged for a closer look

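The following changes went one way in both 10 ng pairs of libraries and the other way in both pairs at a higher input. The difference between inputs was not tested for these values. The share of short RPM with U at base 1 changed by -12.7 percentage points at 10 ng, by 3.94 points at 50 ng and by 5.70 points at 100 ng. A at base 1 changed by 5.58 points at 10 ng against -1.45 and -2.29 points, C by 6.24 against -1.37 and -2.46 points, and G by 0.895 against -1.13 and -0.939 points. At the last base, A changed by -5.38 points at 10 ng against 1.93 and 3.74 points, and C by 1.68 against -2.91 and -3.06 points. The summed RPM of sequences that do not precede TGG changed by 3592 RPM at 10 ng against -967 RPM at 50 ng and -1146 RPM at 100 ng.

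For 2 single sequences the interaction of oxidation with input was called by the limma-trend F test. These were s17d, with an adjusted p of 0.00775 and a level that was lower after oxidation at 10 ng and higher at 50 and 100 ng, and s17j, with an adjusted p of 0.0488 and its highest level at 10 ng after oxidation. Groups of 2 libraries were too small to look for single libraries that stand apart.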

How the results depend on the processing

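Scaled to the methylated spike-ins, the log2 changes of the sums turned to -1.94 (17 and 18 nt), -1.89 (17 nt), -1.98 (18 nt) and -1.0 (before TGG), that of the other sequences moved to -3.11, and s17a, s18a, s18b, s18c, s17b, s17c, s18e, s17d and s18f turned to -0.84, -0.54, -2.13, -1.37, -1.01, -0.01, -0.33, -2.08 and -1.69. Calls under it were 44 (averaged), 38 (10 ng), 21 (50 ng), 4 and 26 (10 against 100 ng before and after oxidation) and 5 (interaction). With the sequences before TGG left out of the short set, chosen after seeing the data, the sums had log2 changes of -0.12, -0.16 and -0.0889, the 17 against 18 nt difference was -0.0696, that against 19 nt 0.66 (2.19 where they were left out of the 19 nt set too), that against 29 to 32 nt -0.34, the end against start difference 2.68 and the U at base 1 change -17.3 points. Without the 10 ng libraries, also chosen after seeing the data, the sums had 0.76, 0.81 and 0.72 and the 3 differences 0.0898, 1.78 and 0.52, at p = 0.0556 by exact permutation, the smallest possible; A at base 10 changed by -0.87 points, and 76 (50 ng) and 59 (100 ng) sequences were called.

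Without the 10 highest members the 17 against 18 nt difference was 0.0641 (exact permutation p = 0.0556). The end against start difference passed the test at 1.20 without them, at 0.98 with longer sequences of at least 5 RPM and at 1.17 with those of 23 nt or more (exact permutation p = 0.00926 each), and had no value among members of at least 5 RPM. Over distinct sequences, U at base 1 changed by -10.2 points. A minimum of 2 RPM gave 132, 102, 0, 48 and 8 calls (averaged, 10 ng, 10 against 100 ng before and after, interaction), and 20 RPM gave 23, 18, 5, 5 and 1, with 21 at 50 ng. edgeR called 16 at 50 ng and 5 for the interaction, DESeq2 5 for 10 against 100 ng before oxidation and 8 for the interaction, a pseudocount of 0.1 gave 4 for the interaction and one of 10 gave 2 for 10 against 100 ng before oxidation.

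Replicate numbers did not pair the libraries (correlations of deviations -0.008, -0.013 and 0.010 over 22726 sequences). With the replicate number as a block, 13 (50 ng), 7 (100 ng), 0 (10 against 100 ng before) and 0 (interaction) sequences were called, and A at base 10 changed by -1.45 points (exact permutation p = 0.0938). Leaving out 1 library at a time, the calls ranged from 11 to 74 (50 ng), 6 to 57 (100 ng), 0 to 10 and 5 to 43 (10 against 100 ng before and after oxidation) and 1 to 25 (interaction), with the highest values without replicate 1 or 2 of 10 ng after oxidation. Averaged calls ranged from 62 to 85, 10 ng calls from 46 to 74, the change of the summed short RPM from 1.01 to 1.10 and the A at base 10 change from -1.71 to -1.18 points, with an unadjusted p above 0.05 in 8 of 12. Of 475 alternatives for 22 named sequences, 454 kept direction and call, 12 lost the call and 9 turned. Sequences under 3 reads in a library, most of the 20861, could not be compared singly.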
